A study of Oryza sativa with 4 samples.

Results

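The 9 genes described here are rice genes of the water-deficit response: RAB16A, RAB16B, RAB16C and RAB16D, a further dehydrin known only by its identifier Os11g0451700, DHN1, LEA3, WSI724 and SalT. They were read as markers of water deprivation and chosen by identifier, as the Rice Annotation Project gives it, from a table of 37858 genes. The choice was made with earlier results of these data known. Shares of the 9 genes set beside all genes therefore only describe them. All 9 had at least 1 count, as did 29698 genes of the table. HDS plants grew from heat-developed seeds that matured at 30 °C, and CS plants grew from control seeds that matured at 25 °C. All plants were of the cultivar Nipponbare and were themselves grown under natural conditions. RNA of fully developed leaves was sequenced at 55 d after sowing (DAS) in 2 biological replicates per treatment. The comparison of HDS with CS plants asks whether the temperature at which a seed matured is followed by other transcript levels in the leaves of the plant that grows from it.

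Late embryogenesis abundant (LEA) proteins are small, very hydrophilic proteins that accumulate in maturing seeds and in tissues that lose water, where they are thought to protect proteins and membranes. Dehydrins are the group of LEA proteins with a lysine-rich motif, and the RAB16 genes (responsive to abscisic acid) are dehydrin genes that abscisic acid switches on through promoter elements bound by bZIP factors. LEA3 encodes a LEA protein of another group, and SalT encodes a mannose-binding, jacalin-related lectin first found in salt-stressed rice. In well-watered leaves such genes are commonly little transcribed, and they serve as markers of water deficit, salt and abscisic acid.

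The libraries held between 15444235 and 17298384 expected counts, so a count of 0 allows a level of up to 3 counts, which is between 0.168 and 0.205 CPM (counts scaled to the size of the library), by counting error alone. HDS replicates 1 and 2 were the lowest of the 4 libraries for 20.1% and 18.1% of the genes with a count, and CS replicates 1 and 2 for 30.3% and 19.2%. CPM were scaled by edgeR's TMM factors and not by gene length, so levels are compared between libraries and not between genes. As these are bulk leaf samples, fewer cells of a type and less RNA per cell cannot be told apart. All 9 genes had expected counts within 1e-06 of a whole number in every library, as had 75.3% of the genes with a count.

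SalT, LEA3 and RAB16A were higher in HDS plants. These 3 of the 9 genes met the study's differential expression criteria (edgeR's exact test, P below 0.05 without adjustment, and an absolute log2 fold change of 0.37 or more), and 0 of the 9 were lower. Of all genes tested, 4.18% (1242 genes) were higher and 3.7% (1098 genes) were lower by the same criteria. These calls come from a refit with another edgeR version than the study's, and the study reported more genes in each direction. SalT, LEA3 and RAB16A also had an exact test P under 0.05 after Benjamini-Hochberg adjustment over all genes, where 1.27% of all genes were higher. By edgeR's quasi-likelihood test with the same adjustment, however, 0 of the 6 genes that had enough counts to be tested were called, against 0.248% of all genes called higher. Before adjustment the quasi-likelihood P was under 0.05 for 3 of these 6 genes, namely SalT, LEA3 and RAB16A, and was 0.099 for DHN1. With edgeR fitted on all genes with at least 1 count, DHN1 was added, at 0.0425. With DESeq2, 1 gene, LEA3, had an adjusted P under 0.05 and 3 had an unadjusted P under 0.05, and 1.15% of all genes were called higher. The median log2 fold change was 1.31 over the 9 genes and 0.01 over all genes with a count. The median of the 9 is the value of the dehydrin Os11g0451700, a gene with few counts. This median moved to 0.80 without HDS replicate 1, where it was the value of RAB16D. It moved to 1.99 without HDS replicate 2 and 4.85 without CS replicate 1, where it was the value of RAB16B. In the fit without CS replicate 1 the only CS library was at 0 for 5 of the genes, and with these at their lower bound (3 counts in that library) the median was 0.65.

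**Figure D1:**
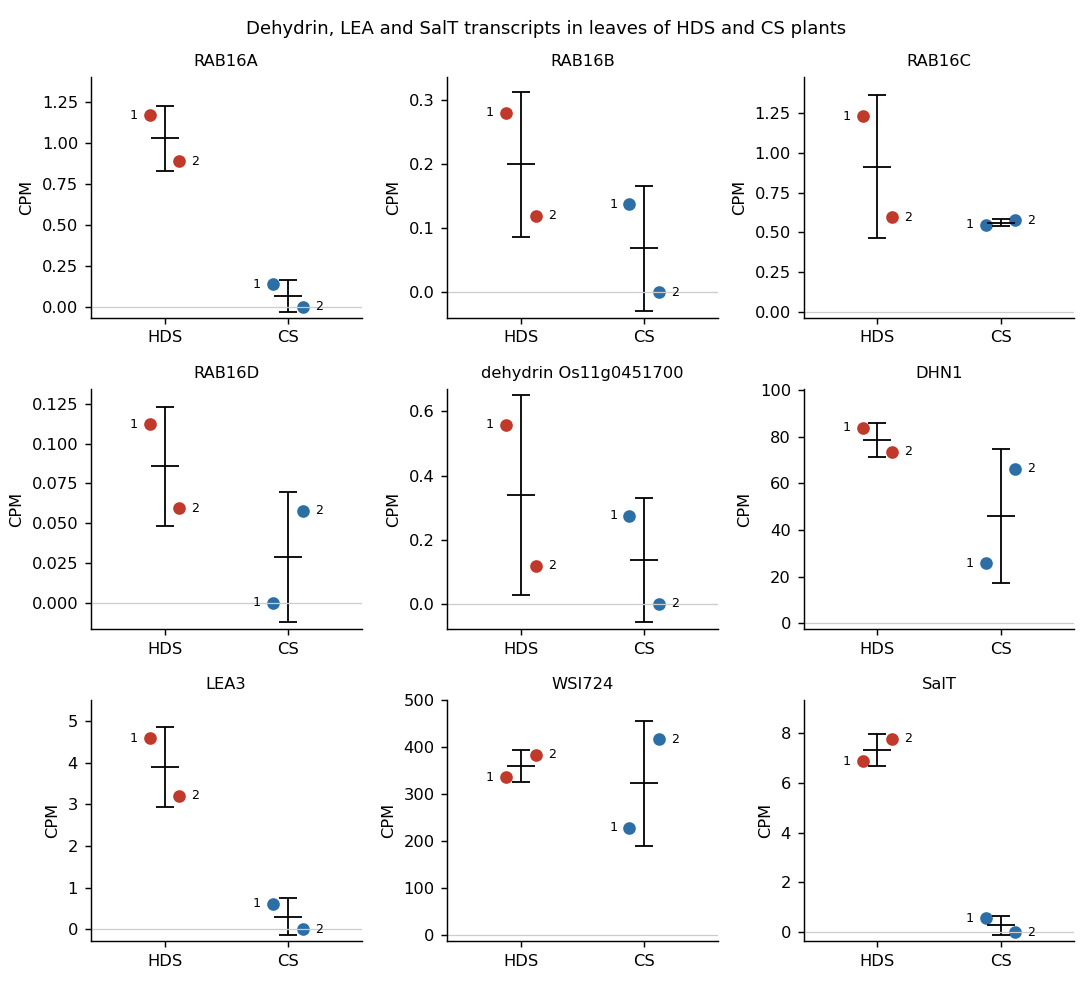
Levels of the 9 transcripts in CPM (vertical axis, a separate linear scale for each gene) in HDS plants (red) and CS plants (blue); points are libraries with their replicate number, the horizontal bar is the mean and the error bar is the SD (n = 2). SalT, LEA3 and RAB16A lie near 0 in both CS libraries and well above it in both HDS libraries, whereas DHN1 and WSI724 spread more between the CS libraries than between the HDS libraries.

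SalT (Os01g0348900, chromosome 1) had the largest log2 fold change of the 9 genes with all libraries fitted. It had 123 and 131 counts in HDS replicates 1 and 2, against 8 and 0 counts in CS replicates 1 and 2. The HDS libraries therefore lay far above both CS libraries and close to each other. This is 7.33 ± 0.641 CPM (SD, n = 2) in HDS plants and 0.274 ± 0.387 CPM (SD, n = 2) in CS plants. The log2 fold change was 4.79 (standard error 1.24 on log2 CPM), with an adjusted P = 3.38e-10 by edgeR's exact test and 0.0882 by edgeR's quasi-likelihood test. The exact test P of SalT was the 26th smallest among the genes with higher levels in HDS plants. The adjusted P of SalT was 0.37 with DESeq2, the highest among the alternatives to the quasi-likelihood test, the lowest being 0.000774.

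The size of the SalT difference depended on the CS library it was set against. The HDS mean was 13.4-fold above CS replicate 1. Against CS replicate 2, where 3 counts are allowed in that library, it was at least 42.4-fold higher. With CS replicate 2 left out SalT had a log2 fold change of 3.70, and with CS replicate 1 left out, when the only CS library had no count, the fitted value was 9.99 and depended on edgeR's prior count. SalT met the study's criteria whichever library was left out.

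LEA3 (Os05g0542500, chromosome 5), the group 3 LEA gene, had 82 and 54 counts in HDS replicates 1 and 2, against 9 and 0 counts in CS replicates 1 and 2. Its libraries stood in the same order of treatments as those of SalT, with CS replicate 2 again at 0. LEA3 had 3.89 ± 0.972 CPM (SD, n = 2) in HDS plants and 0.308 ± 0.435 CPM (SD, n = 2) in CS plants. The log2 fold change was 3.69 (standard error 1.33 on log2 CPM), with an adjusted P = 0.00242 by edgeR's exact test, 0.229 by edgeR's quasi-likelihood test and 0.0141 with DESeq2. Over the alternatives, the adjusted P of LEA3 ran from 0.00423 to 0.687. The HDS mean was 6.32-fold above CS replicate 1 and at least 22.5-fold above CS replicate 2 at 3 counts allowed in that library. The log2 fold change of LEA3 was 2.63 without CS replicate 2 and a fitted 9.08 without CS replicate 1, again against a library with no count.

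Among the genes with higher levels in HDS plants, the exact test P of LEA3 was the 202nd smallest and that of RAB16A the 255th. In these data 11 of the 29698 genes had 0 counts in CS replicate 2, at most 9 in CS replicate 1 and at least 50 in each HDS library, and SalT and LEA3 are 2 of them. These limits were chosen after the counts of SalT and LEA3 had been seen, so the number only describes how many other genes look alike.

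**Figure D2:**
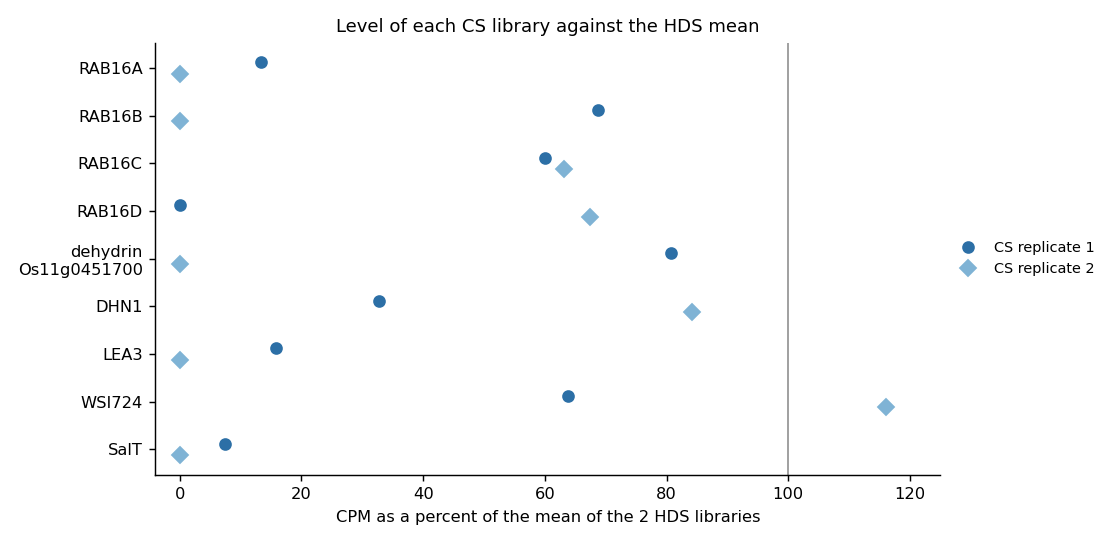
CPM of CS replicate 1 (circles) and CS replicate 2 (diamonds) for each gene, as a percent of the mean of both HDS libraries (horizontal axis; the vertical line is 100%). SalT, LEA3 and RAB16A lie between 0% and 15.8% in both CS libraries, whereas CS replicate 2 reaches 84.2% for DHN1 and 116% for WSI724.

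The RAB16 genes lie together on chromosome 11, and RAB16A was the one of the 4 that met the study's criteria. RAB16A (Os11g0454300) had 21 and 15 counts in HDS replicates 1 and 2, against 2 and 0 counts in CS replicates 1 and 2. This is 1.03 ± 0.2 CPM (SD, n = 2) in HDS plants and 0.0684 ± 0.0968 CPM (SD, n = 2) in CS plants. Both CS libraries were within the 3 counts that a count of 0 allows, and both HDS libraries were above it. The fitted log2 fold change was 3.87, with an adjusted P = 0.00918 by edgeR's exact test, 0.229 by edgeR's quasi-likelihood test and 0.296 with DESeq2. On log2 CPM with a prior count of 2 the difference was 2.70 (standard error 0.58). This standard error belongs to the 2.70 and does not give the precision of the fitted 3.87. Over the alternatives to the quasi-likelihood test, the adjusted P of RAB16A ran from 0.0998 to 0.996. With so few counts, the fitted value of RAB16A changed to 3.14 with a prior count of 1, to 2.83 without CS replicate 2 and to 7.17 without CS replicate 1. The 7.17 is against a library with no count and depended on edgeR's prior count. The HDS mean was 7.53-fold above CS replicate 1 and at least 5.97-fold above CS replicate 2 at 3 counts allowed in that library.

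The ratio of summed counts gives the precision for RAB16A without a prior count. There were 36 counts in HDS plants and 2 in CS plants, a ratio of 16.6 after scaling for depth, with a 95% Clopper-Pearson interval of 4.26 to 142. Such intervals cover counting error only, and not the spread between replicates. For LEA3 the same ratio was 13.9 (7.11 to 31.1), and for SalT it was 29.2 (14.6 to 68.4). The intervals of the 3 genes overlapped, so the order of their fold changes was not resolved.

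The other RAB16 genes did not meet the criteria. RAB16C (Os11g0454000) had 22 and 10 counts in HDS replicates 1 and 2, against 8 and 10 counts in CS replicates 1 and 2. Only HDS replicate 1 stood apart, since HDS replicate 2 had as many counts as CS replicate 2 and was barely higher after scaling (0.594 CPM in HDS replicate 2 and 0.577 CPM in CS replicate 2). RAB16C had a log2 fold change of 0.69 (standard error 0.46 on log2 CPM; P = 0.398 by edgeR's exact test), which was 0.08 without HDS replicate 1. The levels were 0.912 ± 0.449 CPM (SD, n = 2) in HDS plants and 0.562 ± 0.0206 CPM (SD, n = 2) in CS plants, so the spread of RAB16C was wider between the HDS libraries.

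RAB16B (Os11g0454200) had 5 and 2 counts in HDS replicates 1 and 2, against 2 and 0 in CS replicates 1 and 2, and RAB16D (Os11g0453900) had 2 and 1 in HDS replicates 1 and 2, against 0 and 1 in CS replicates 1 and 2. These levels are at the limit of what the libraries measure. The ratio of summed counts was 3.22 for RAB16B (95% interval 0.613 to 31.8) and 2.76 for RAB16D (0.222 to 145), so the direction of a difference was not resolved at this depth. Summed over the 4 genes, RAB16 transcripts had 50 and 28 counts in HDS replicates 1 and 2, against 12 and 11 in CS replicates 1 and 2. The ratio of these sums was 3.12 (1.94 to 5.21, counting error only), and most of the HDS sum came from RAB16A and RAB16C. RAB16A gave 36 of the HDS counts and 2 of the CS counts, against 32 and 18 from RAB16C. The ratio thus includes the gene that met the criteria and is no separate result for the other RAB16 genes.

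In the table the rows from Os11g0451700 to RAB16A hold 9 genes, 5 of them the dehydrin and RAB16 genes and 4 others. Of the other 4, 3 had no count in any library. The remaining gene, Os11g0452400, lies between the dehydrin and RAB16D and had 510 and 520 counts in HDS replicates 1 and 2, against 624 and 618 in CS replicates 1 and 2. Its log2 fold change was -0.40 (P = 0.0559 by edgeR's exact test), which did not pass the test. It was named after its counts had been seen. In RefSeq's gene table of the assembly ASM3414082v1, RAB16D, RAB16C, RAB16B and RAB21, an older name of RAB16A, follow each other on chromosome 11 in this order, with 2 other genes between RAB16C and RAB16B.

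The dehydrin Os11g0451700, also on chromosome 11, had 10 and 2 counts in HDS replicates 1 and 2, against 4 and 0 counts in CS replicates 1 and 2. The treatments overlapped, as HDS replicate 2 was below CS replicate 1. Its log2 fold change of 1.31 (standard error 1.14 on log2 CPM; P = 0.537 by edgeR's exact test) was -0.14 without HDS replicate 1. The ratio of summed counts was 2.76 (0.837 to 11.7), which did not resolve a direction.

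**Figure D3:**
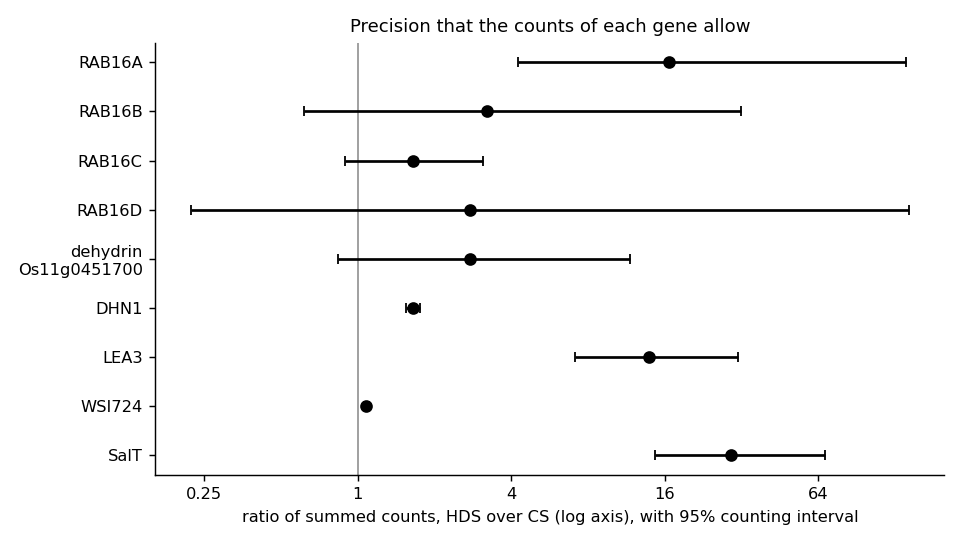
Ratio of the summed counts of both HDS libraries over both CS libraries after scaling for depth (log axis), with 95% Clopper-Pearson intervals that cover counting error only; the vertical line marks equal levels. The intervals of RAB16A, LEA3 and SalT lie above 4, those of RAB16B, RAB16C, RAB16D and the dehydrin Os11g0451700 cross 1, and those of DHN1 and WSI724 are narrow because these genes had many counts.

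DHN1 and WSI724 had many counts in every library and behaved otherwise. DHN1 (Os02g0669100, chromosome 2), a dehydrin also known as LIP9 for its induction by low temperature, had 1499 and 1237 counts in HDS replicates 1 and 2, against 376 and 1148 counts in CS replicates 1 and 2. Both HDS libraries were above both CS libraries, but CS replicate 2 lay near them and CS replicate 1 far below. DHN1 had 78.6 ± 7.28 CPM (SD, n = 2) in HDS plants and 46.0 ± 28.6 CPM (SD, n = 2) in CS plants. For DHN1 the log2 fold change was 0.77 (standard error 0.69 on log2 CPM), with P = 0.0561 by edgeR's exact test and an adjusted 0.641 by edgeR's quasi-likelihood test (0.000711 to 1 over the alternatives).

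The value for DHN1 depended on the CS library. The HDS mean was 3.05-fold above CS replicate 1 and 1.19-fold above CS replicate 2. Leaving out CS replicate 2 gave a log2 fold change of 1.59, which met the study's criteria, and leaving out CS replicate 1 gave 0.24 (P = 0.173 by edgeR's exact test). The level in CS replicate 2 was 2.57 times that in CS replicate 1. Among the 12601 genes with a mean of at least 10 CPM, 1.46% differed between the CS libraries by this factor or more, the median factor being 1.17. The 2 HDS libraries differed by a factor of 1.14 for DHN1, against a median of 1.09 for these genes.

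WSI724 (Os03g0655400, chromosome 3), named as a water stress induced gene, had 6008 and 6459 counts in HDS replicates 1 and 2, against 3352 and 7233 counts in CS replicates 1 and 2. The treatments overlapped, with CS replicate 2 the highest and CS replicate 1 the lowest of the libraries. It had 360 ± 33.9 CPM (SD, n = 2) in HDS plants and 323 ± 133 CPM (SD, n = 2) in CS plants. WSI724 had a log2 fold change of 0.15 (standard error 0.44 on log2 CPM; P = 0.601 by edgeR's exact test). Leaving out CS replicate 1 gave -0.22, and leaving out CS replicate 2 gave 0.63, a value that met the study's criteria. The CS libraries differed by a factor of 1.82, which 4.01% of the genes with at least 10 CPM reached.

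The 9 genes thus differed in which CS library was the lower one. CS replicate 2 was the lowest library, at 0 counts, for RAB16A, RAB16B, the dehydrin Os11g0451700, LEA3 and SalT. CS replicate 1 was the lowest for RAB16C, RAB16D, DHN1 and WSI724, though CS replicates 1 and 2 differed little for RAB16C and RAB16D. The 5 genes at 0 in CS replicate 2 had between 7 and 254 counts summed over the HDS libraries. Of the 10709 genes in this range, 4.09% had 0 counts in CS replicate 2. The range was set by these 5 genes, so the share is no test of them, and it was not matched to the count of each gene. RAB16C, with 32 counts summed over the HDS libraries and 10 in CS replicate 2, also lay in the range. OsActin and OsUBQ, housekeeping genes that the study used as references for RT-qPCR (OsUBQ for leaves), were not called. OsActin had 371 and 386 CPM in HDS replicates 1 and 2, against 358 and 368 CPM in CS replicates 1 and 2. OsUBQ had 43.4 and 44.7 CPM in HDS replicates 1 and 2, against 71.0 and 46.0 CPM in CS replicates 1 and 2, so CS replicate 1 was the highest library for OsUBQ and the lowest for DHN1 and WSI724. The part of the difference between the CS libraries in the results for DHN1 and WSI724 was not tested further than by leaving each library out.

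Both HDS libraries were above both CS libraries for 6 of the 9 genes, namely RAB16A, RAB16C, RAB16D, DHN1, LEA3 and SalT, against 19.6% of all genes with a count. For RAB16C and RAB16D this order rested on scaling for depth, since HDS replicate 2 and CS replicate 2 had the same count. HDS replicate 1 was above HDS replicate 2 for 7 of the 9 genes, the exceptions being WSI724 and SalT, against 48.8% of all genes with a count.

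**Figure D4:**
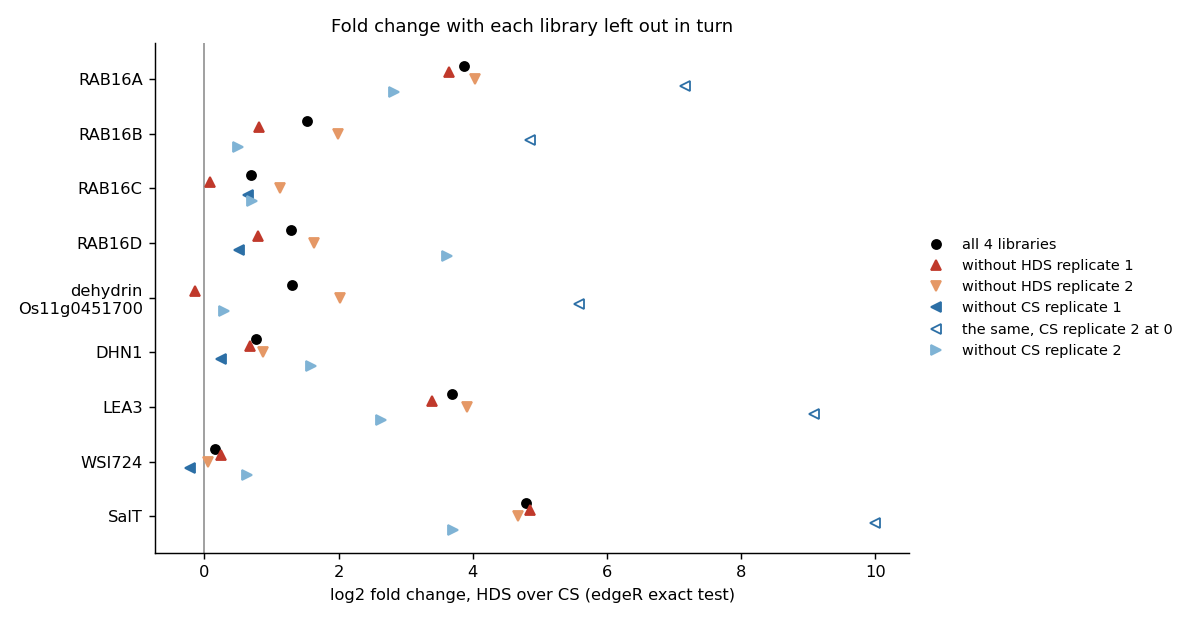
Log2 fold change of each gene, HDS over CS, by edgeR's exact test with all 4 libraries (black) and after leaving out any 1 of them (coloured triangles; open triangles mark fits in which the only CS library had 0 counts, whose value depends on edgeR's prior count). SalT, LEA3 and RAB16A are at 2.63 or more in every fit, whereas WSI724 and the dehydrin Os11g0451700 cross 0.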

How the data were processed

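Leaf libraries of HDS and CS plants (2 each) were analysed, grouped by the sample labels. The authors sequenced stranded mRNA libraries and estimated expected counts per gene with RSEM. They deposited these expected counts without normalization. The submitters' processing notes also name FastQC 0.11.7, Trimmomatic, Bowtie2 and the build IRGSP-1.0. There were 0 columns that were not used and 0 rows naming no gene. Each treatment had 2 biological replicates, and the study's methods count each plant as a replicate.

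Expected counts were rounded to whole numbers and fitted over all genes in R 4.3.3 with edgeR 4.0.16 (exactTest on genes with at least 1 count; quasi-likelihood test on the 22184 genes kept by filterByExpr) and DESeq2 1.42.0. Both edgeR fits used TMM factors, and P-values were adjusted by Benjamini-Hochberg over all genes tested. Standard errors come from the spread of log2 CPM (prior count 2) between replicates. The fitted log2 fold changes used another prior count, so for genes with few counts the 2 scales differ. On the scale of the standard errors the difference was 0.53 for RAB16C and 0.89 for the dehydrin Os11g0451700. The fits were tested on simulated data, in which only genes with a higher mean CPM than SalT, LEA3 and RAB16A were given a change. The simulation therefore does not show how well changes are recovered at the counts of these and the other genes with few counts. The alternatives were other normalizations, filters and tests, another prior count, a replicate block and each library left out; after leaving out 1 of 2, the lone library is assumed to vary like the other treatment.

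OsActin, OsUBQ and Os11g0452400 were named beside the 9 genes. The 9 genes, the rule to name all of them and the gene lists were chosen with earlier results of these data known. Lists of abscisic acid signalling and further LEA genes, leaf and seed marker genes, and sequences were not analysed here: RefSeq's gene table has a Rice Annotation Project identifier in 1 row, which is none of these genes, so no table used here pairs the identifiers with names. The leaf label was therefore not checked against markers.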

Additional observations from a re-analysis of the deposited data

How the results depend on the processing

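Of the 9 genes, 3 met the study's criteria, and leaving out any 1 library gave 3 to 5, the highest without CS replicate 2, when DHN1 and WSI724 were added. It was 4, with DHN1 added, by unadjusted quasi-likelihood P and with the replicate block, both fitted on all genes with at least 1 count; on the genes kept by filterByExpr, the unadjusted quasi-likelihood P without the block was 0.099 for DHN1. By the adjusted quasi-likelihood test the number was 0, but 1 (SalT) when all genes with at least 1 count were tested, 1 (LEA3) with DESeq2, and 2 (LEA3 and SalT) with the replicate block. Leaving out any 1 library gave 0 to 4, namely 2 (LEA3 and SalT) without CS replicate 1 and 4 (these, DHN1 and WSI724) without CS replicate 2. The same-numbered replicates did not deviate together (correlation 0.004 across genes), so the numbers were not taken as a pairing. The log2 fold change turned to -0.14 for the dehydrin Os11g0451700 without HDS replicate 1 and to -0.22 for WSI724 without CS replicate 1. For WSI724 it was 0.63 without CS replicate 2. For the dehydrin it was a fitted 5.59 without CS replicate 1, where the only CS library had no count and the value depended on edgeR's prior count. With 3 counts allowed in that library, the HDS mean of the dehydrin was at least 1.96-fold above it. No other gene of the 9 changed sign under any alternative run. SalT, LEA3 and RAB16A met the criteria under all 12 alternatives run for them. The cause of these changes was not tested. For RAB16B, RAB16D and the dehydrin Os11g0451700 depth limits the result, as no library had more than 10 counts, and filterByExpr removed them. The lists of abscisic acid signalling and further LEA genes gave no alternatives, as their identifiers could not be named from the tables used here.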
